A study of Sus scrofa with 3 samples.

Results

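Transcription factors that build fat cells and switch on fat synthesis were followed in visceral adipose tissue (VAT) of Chinese Wuzhishan miniature pigs. The set consisted of 10 named genes, PPARG, CEBPA, CEBPB, CEBPD, SREBF1, SREBF2, MLXIPL, RXRA, KLF15 and PPARA, and its members were taken as the genes of class mRNA listed under those symbols. Of the 10 genes, 9 were listed among the 22826 mRNA genes and 6 had a value above 0. SREBF1, SREBF2 and KLF15 were listed at 0 in all 3 libraries, and RXRA was not analysed here.

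The pigs were males, 6 to 7 months old when obtained, and every group ate a diet rich in fat and cholesterol (HFC) for 12 weeks. Intact pigs (IM) had skin incisions only, castrated pigs (CM) were gonadectomized, and castrated pigs with replacement (CMT) received testosterone propionate in corn oil at 10 mg/kg each week. No oil injection is stated for IM or CM. The VAT was retroperitoneal fat, and the question was how castration and testosterone replacement alter gene expression there. Each group gave 1 pool of RNA (4 pigs by the methods, 4 to 6 by the labels) and 1 sequenced library.

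Fat cell formation runs through a relay of transcription factors. CEBPB and CEBPD act early and switch on PPARG and CEBPA, which then maintain each other and the genes of the mature fat cell. PPARG and PPARA are nuclear receptors that bind DNA together with a retinoid X receptor such as RXRA, and PPARA is known for fatty acid oxidation in liver and muscle. SREBF1 and MLXIPL (ChREBP) drive fatty acid synthesis in response to insulin and glucose, SREBF2 drives cholesterol synthesis, and KLF15 is a glucocorticoid-induced factor of late fat cell formation.

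Levels are given in UQRPKM, reads per kilobase of gene after upper-quartile scaling of each library, so genes can be compared per length. The reads behind each value were recovered from the values and came to 15106608 to 16611931 per library. With 1 library per group no difference has a replicate check, and a 95% interval covers counting error only. A gene was called higher or lower when its levels differed 1.5-fold or more and both reached 1 UQRPKM. Where 3 values are given without names, they stand in the order IM, CM, CMT. The pigs of CM and CMT were castrated alike, and the CM library takes part in both the castration and the replacement comparison, so opposite ratios in them are not independent.

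CEBPA was the most abundant factor in every library. It stood at 3196, 3723 and 2778 UQRPKM, from 12595, 13983 and 10729 reads, and was highest in CM. CEBPA exceeded 98.2% of the expressed mRNA genes of the IM library. PPARG, the receptor that holds fat cells in their mature state, followed with 1454, 1745 and 1704 UQRPKM. These 2 genes were high in all 3 pools, and no ratio between libraries reached 1.5-fold for either.

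CEBPD and MLXIPL formed the middle of the order. CEBPD had 568 (95% interval 539 to 598), 591 and 909 UQRPKM, with CMT apart from the other libraries. MLXIPL had 525 (503 to 548), 471 and 364, with the opposite order. Their intervals overlapped in IM but not in CM, and in CMT the level of CEBPD was far above that of MLXIPL.

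CEBPB and PPARA were the least abundant of the measured factors. CEBPB had 108, 69.7 and 59.9 UQRPKM, from 168, 103 and 91 reads, and was highest in IM. PPARA had 37.1, 79.4 and 58.7 UQRPKM, from 78, 159 and 121 reads, and was highest in CM. CEBPB stood above PPARA in IM, whereas their intervals overlapped in CM (56.9 to 84.5 against 67.5 to 92.7) and in CMT.

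**Figure D1:**
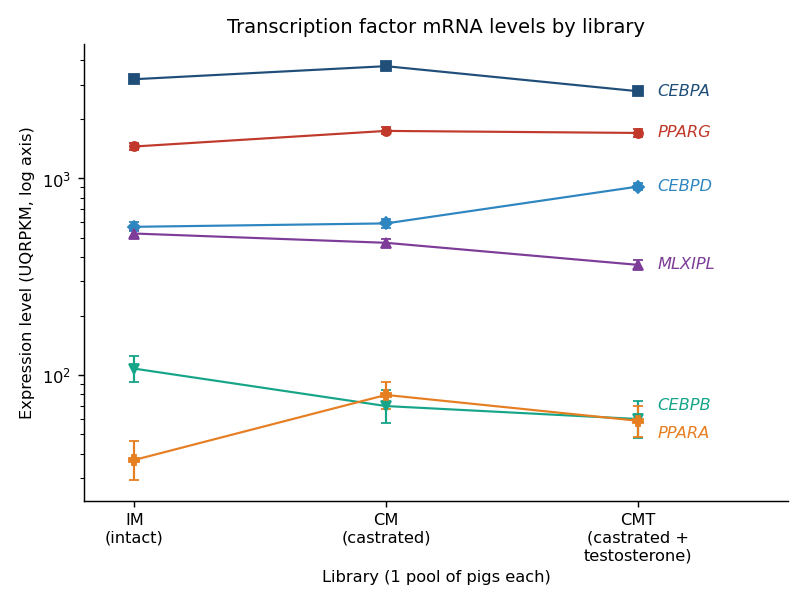
Level of each measured factor in the IM, CM and CMT libraries, in UQRPKM on a log axis, with bars for the exact Poisson 95% interval of the reads. CEBPA and PPARG stay at the top in every library, and CEBPD is highest in CMT (909). CEBPB lies above PPARA in IM, whereas their intervals overlap in CM and in CMT.

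The 3 factors listed at 0 need care. In total 5990 mRNA genes (26.2%) were listed at 0 in all libraries, and so were 6 of 66 genes with a ribosomal protein symbol, which every cell uses. The other ribosomal protein genes had a median of 11386 UQRPKM in IM. No row was listed under the RefSeq gene number of SREBF1, SREBF2, KLF15 or RXRA either. A row named ADD1, the symbol of adducin 1 but also an older name of SREBF1, held 912, 786 and 833 UQRPKM. SREBF1 is listed apart from it, at 0, so the ADD1 values were not read as SREBF1. No statement on the expression of SREBF1, SREBF2, KLF15 or RXRA can be made from these values.

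The labelled tissue was checked against fat cell markers. ADIPOQ (adiponectin) stood at 74928, 69193 and 63873 UQRPKM, and PLIN1, the perilipin of fat droplets, at 18396, 18587 and 12504. All 8 listed markers of a list of 10 were above 0 in every library, while FABP4 and LPL were not analysed here. Their summed level was 141458, 132158 and 111896. In CMT versus CM, 3 of the 8 markers (LEP, AQP7 and GPD1) were called lower. Fewer fat cells and less RNA per fat cell cannot be told apart in such bulk pools.

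Other cell types also differed between the pools. Of 14 hepatocyte markers, 12 were above 0, with a summed level of 2570, 10674 and 1753, of which APOA1 alone gave 2539, 2339 and 1714, and APOB was listed at 0. The gene of serum albumin, ALB, had 10, 10612 and 15 reads. In CM versus IM, 6 of 7 comparable hepatocyte markers were called higher and APOA1 had -0.12. Of 13 skeletal muscle markers, 9 were above 0 and their sum was 82.5, 68.3 and 6145, with TNNT3, CKM and MB listed at 0 in every library. Of 12 macrophage markers, 10 were above 0, CD163 was listed at 0, and their sum lay between 1735 and 2130. EMR1, LOC100520753 and LYZ were called higher in CM than in IM (log2 ratios 1.04, 1.31 and 1.24), and these 3 with ITGAM were called lower in CMT than in CM. Mesothelial markers, 5 of 7 above 0 and LRRN4 at 0, summed to 121, 205 and 495, while KRT18 had 28.7, 26.7 and 14.4 and was called lower in CMT than in either other library. The sum of all 10 fibroblast genes was 73451 to 77836, of which COL3A1 alone gave 39816 to 46011. COL1A1 (4453, 2235 and 2580) and DPP4 were called lower in CM than in IM, DPP4 higher in CMT than in CM, and PDGFRA higher and COL1A1 lower in CMT than in IM. The sum of 7 of 8 endothelial genes was 8437 to 9519, with EGFL7 called lower in CMT than in IM.

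The first comparison asked what castration alone changed. PPARA was 2.14-fold higher in CM than in IM and CEBPB was 1.55-fold lower, while PPARG, CEBPA, CEBPD and MLXIPL stayed within 1.5-fold. Thus 1 of 6 measured factors was called higher, against 8.38% of all 14123 mRNA genes tested, and 1 of 6 was called lower, against 10.4%. With an adjusted p below 0.05 in an exact binomial test on the reads as well, the same counts stood against 4.38% and 5.76%. The median log2 ratio was 0.14 over the 6 factors and -0.06 over all genes tested.

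PPARA had the largest ratio among the factors, 1.10 on the log2 scale (95% interval 0.70 to 1.51). Only 6.53% of all genes tested had a larger ratio in either direction. The exact binomial test, which compares the libraries and not the conditions, gave an adjusted p of 1.86e-07. PPARA is abundant in liver, and of the hepatocyte markers above 0 all but APOA1 were also highest in CM, as were 3 macrophage markers called there. Among the macrophage markers not called there, CSF1R was highest in IM (285, 246 and 221 UQRPKM) and MRC1 and MSR1 in CMT. CD14, ITGAM, AIF1 and TYROBP were highest in CM. Among PPARA targets known from liver, CYP4A24, a fatty acid hydroxylase gene, had 1, 10 and 0 reads. The part of these cells in the PPARA ratio was not tested.

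CEBPB had a log2 ratio of -0.64 (-1.0 to -0.27). The adjusted p of the exact binomial test was 0.00214. Its fold of 1.55 lay just past the limit, and scaling by the median ratio of abundant genes put it at -0.57 on the log2 scale, where the call was lost.

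The mature fat cell factors differed by small amounts that exceeded counting error. PPARG had a log2 ratio of 0.26 (0.17 to 0.35) in CM versus IM, and CEBPA had 0.22 (0.19 to 0.26). MLXIPL had -0.16 (-0.25 to -0.07). For CEBPD the ratio of 0.06 had an interval from -0.05 to 0.17, so no difference was detectable at this depth. Ratios larger than that of PPARG were seen for 48.2% of all genes tested, and larger than that of CEBPA for 55.1%.

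The second comparison asked what testosterone replacement changed in castrated pigs. CEBPD was 1.54-fold higher in CMT than in CM, and no factor was called lower. Thus 1 of 6 factors was called higher, against 9.53% of 14098 mRNA genes, and 0 of 6 lower, against 9.97%. With the exact binomial test added the same counts stood against 5.06% and 5.56%. The median log2 ratio was -0.30 over the 6 factors and -0.02 over all genes tested.

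CEBPD was highest in CMT, with a log2 ratio of 0.62 (0.52 to 0.72) over CM. The exact binomial test on its 1420 and 2245 reads gave an adjusted p of 4.92e-36 between the libraries. Its log2 ratio ran from 0.62 to 0.86 over the scalings tried. Each alternative scaling raises every ratio of CMT over CM, by 0.02 to 0.24, so none could have removed this call. All 9 skeletal muscle markers above 0 and 4 of 5 mesothelial markers, KRT18 being the exception, were also highest in CMT, and their part in the CEBPD ratio was not tested.

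CEBPA was lower in CMT than in CM with a log2 ratio of -0.42 (-0.46 to -0.39), and MLXIPL with -0.37 (-0.47 to -0.27). PPARA had -0.43 (-0.79 to -0.08), with an adjusted p of 0.0505 in the exact binomial test. None of these 3 ratios reached 1.5-fold. PPARG had -0.03 (-0.12 to 0.05) and CEBPB -0.22 (-0.64 to 0.20), and both intervals included 0. Scaled by the summed fat cell markers, which were lowest in CMT, the ratio of CEBPA was -0.18 and that of MLXIPL -0.13, while those of PPARG and CEBPB changed sign to 0.21 and 0.02.

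The third comparison set castrated pigs with testosterone against intact pigs and did not use the CM library. CEBPD and PPARA were called higher in CMT than in IM, and CEBPB was called lower. That is 2 of 6 higher, against 8.81% of 14151 mRNA genes, and 1 of 6 lower, against 11.9%. With the exact binomial test added these counts stood against 4.58% and 7.37%. The log2 ratio was 0.68 (0.58 to 0.78) for CEBPD and 0.66 (0.24 to 1.09) for PPARA. For CEBPB it was -0.86 (-1.24 to -0.48), a 1.81-fold lower level, and scaling by the fat cell markers moved it to -0.52, within 1.5-fold.

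MLXIPL stayed within 1.5-fold in the same comparison and was not called, at 1.44-fold lower with a log2 ratio of -0.53 (-0.63 to -0.43). PPARG was at 0.23 (0.14 to 0.32). CEBPA was at -0.20 (-0.24 to -0.16), a direction that turned to 0.14 when scaled by the fat cell markers. For PPARA in CMT versus IM, the hepatocyte markers had a median log2 ratio of 0.04, with APOA1 at -0.57 and ALB at 15 and 10 reads. The skeletal muscle markers, at 6145 against 82.5, were higher in CMT. The part of these cells in the PPARA ratio was not tested.

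**Figure D2:**
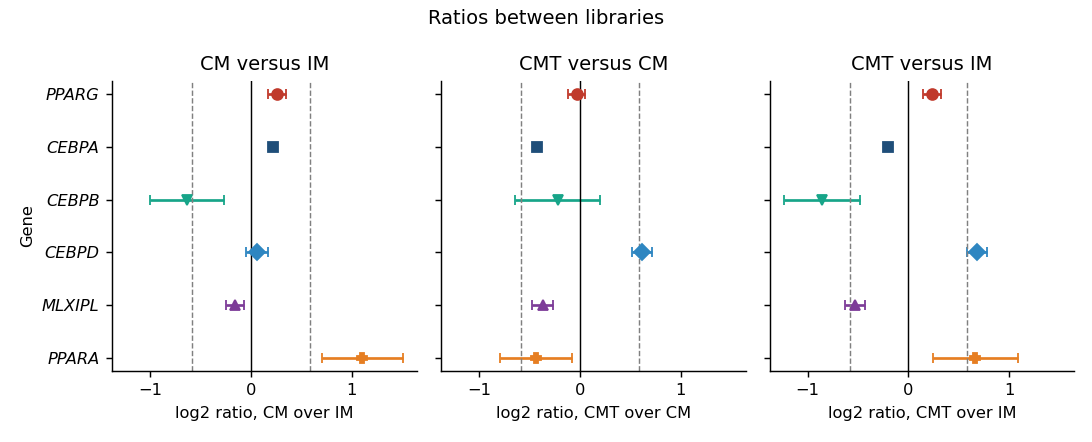
Log2 ratio of each measured factor in the 3 comparisons of the libraries, with exact Clopper-Pearson 95% intervals from the reads and dashed lines at 1.5-fold. PPARA lies at 1.10 in CM versus IM, CEBPD at 0.62 in CMT versus CM and CEBPB at -0.86 in CMT versus IM.

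The split of calls over all mRNA genes depended on the scaling. Of the genes called by fold in CM versus IM, 44.6% were higher in CM, and scaling by the fat cell markers gave 55.7%. The higher share went from 48.9% to 73.6% in CMT versus CM and from 42.4% to 79.4% in CMT versus IM, where the median ratio of abundant genes gave 55.1%. The fat cell scaling added 0.10, 0.24 and 0.34 to each log2 ratio in the 3 comparisons. The ratio of a factor to another within a library does not depend on any of these scalings.

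**Figure D3:**
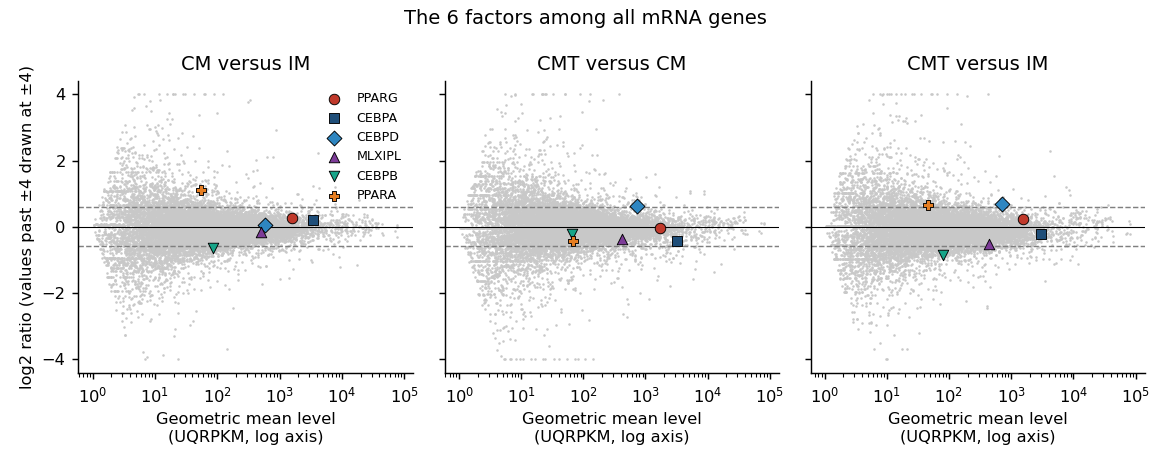
Log2 ratio against the geometric mean level (UQRPKM, log axis) for the mRNA genes with at least 1 UQRPKM in every library (grey) and the 6 measured factors (coloured), 1 panel per comparison, with dashed lines at 1.5-fold. PPARA (1.10) and CEBPB (-0.64) lie past the lines in CM versus IM, and CEBPD (0.62) in CMT versus CM.

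The balance among the C/EBP factors differed between the libraries. CEBPA, the factor of mature fat cells, was 29.5 times as abundant as the early factor CEBPB in IM, 53.4 times in CM and 46.4 times in CMT. In log2 units the ratio was 0.86 higher in CM than in IM (0.49 to 1.23), and CMT exceeded IM by 0.65 (0.27 to 1.04). CEBPA was 5.63, 6.30 and 3.06 times as abundant as CEBPD, a difference of -1.04 (-1.15 to -0.94) in CMT versus CM. The 2 early factors went apart, with CEBPD at 5.24, 8.48 and 15.2 times the level of CEBPB. These pairs were chosen after the values were seen, and 7 were compared.

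Summed over CEBPA, CEBPB, CEBPD, CEBPE and CEBPG, the C/EBP level was 3954, 4498 and 3818 UQRPKM. CEBPA made up 80.8%, 82.8% and 72.8% of it, and CEBPD 14.4%, 13.1% and 23.8%. CEBPE, a factor of granulocytes, was rare but stood at 4.60, 36.2 and 5.63 UQRPKM, from 10, 75 and 12 reads. CEBPG, which pairs with other C/EBP factors, had 77.3, 78.5 and 65.0.

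Among the PPAR receptors, PPARG made up 79.0% of the summed level in IM, 81.5% in CM and 85.8% in CMT. PPARD, the widely expressed receptor of this family, had 351, 317 and 223 UQRPKM and exceeded PPARA in every library. The ratio of PPARG to PPARA was 39.2, 22.0 and 29.0, a log2 difference of -0.83 (-1.25 to -0.42) for CM against IM. PPARG to MLXIPL was 2.77, 3.71 and 4.68, with a difference of 0.76 (0.63 to 0.89) in CMT versus IM. CEBPA had 2.20 times the level of PPARG in IM and 2.13 times in CM, a log2 difference of -0.04 (-0.14 to 0.05), whereas it had 1.63 times in CMT.

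**Figure D4:**
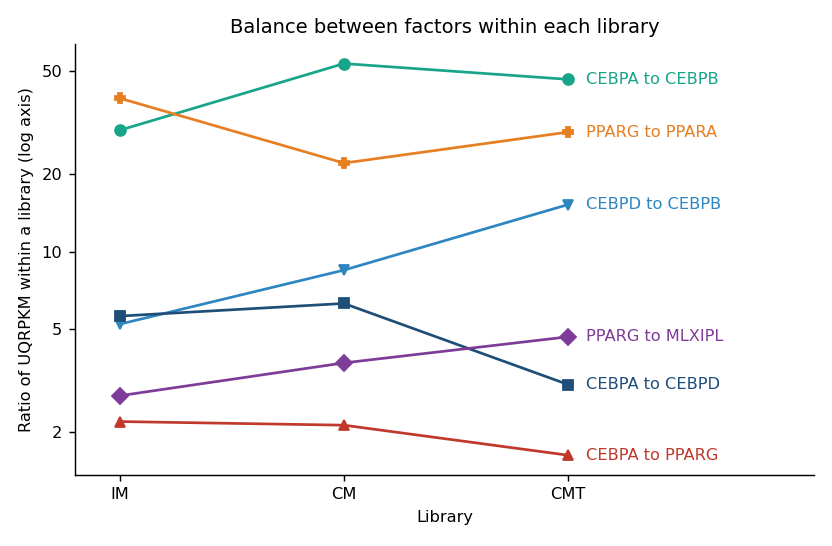
Ratio of the UQRPKM of one factor to that of another within the IM, CM and CMT libraries, on a log axis. CEBPD to CEBPB goes from 5.24 in IM to 15.2 in CMT, PPARG to PPARA is lowest in CM (22.0), and CEBPA to CEBPD is lowest in CMT (3.06).

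PPARA had the widest range of the 6 factors, 1.10 on the log2 scale. Its nearest genes by the distance over its log2 ratios for castration and for replacement, among 5237 other genes of at least 100 UQRPKM in every library, were 0610007P14RIK, LOC100623428 and PMP2, a fatty acid binding protein of myelin. PMP2 had 167, 313 and 260 UQRPKM, an order shared with PPARA that the choice by these ratios fixed in advance. PPARA itself, at 37.1 to 79.4 UQRPKM, lay below the level limit, so genes at its own level were not searched. The distances were 0.211 to 0.250, and 0 genes lay within 0.1. The likeness rests on 3 libraries only.

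Partner genes of the receptors were measured even where RXRA was not. RXRG had 484, 471 and 378 UQRPKM and RXRB 210, 190 and 208, so RXRG was the more abundant of these retinoid receptors in each library. Of 20 listed receptor partners and coregulators, 17 could be compared. In CM versus IM, 0 were called higher and 2 lower, CREBBP and LPIN1. Over all genes tested, 8.38% were called higher and 10.4% lower in this comparison. The shares were 9.53% and 9.97% in CMT versus CM, and the counts of all lists stand against these. CREBBP, a histone acetyltransferase and coactivator, had 155, 43 and 146 reads, with log2 ratios of -1.78 (-2.30 to -1.28) for castration and 1.72 (1.22 to 2.25) for replacement, both measured against the CM library. LPIN1, a phosphatidate phosphatase that also coactivates PPARs, had 1355, 828 and 1015, with ratios of -0.71 and 0.29.

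With replacement, CREBBP was the 1 gene called higher among these 17 and 0 were called lower. PPARD had the lowest ratio, -0.51 (-0.62 to -0.39), followed by RXRG with -0.32. At the upper end of CM versus IM stood the deacetylase SIRT1 with 0.46 (0.15 to 0.76) and the coactivator PPARGC1B with 0.27, both within 1.5-fold. NR3C1, the glucocorticoid receptor, had 207, 202 and 207 UQRPKM. The median log2 ratio of this list was -0.10 for castration and 0.01 for replacement.

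Of 23 other regulators of fat cell formation, 2 were called higher and 4 lower in CM than in IM. The shares over all genes tested were 8.38% and 10.4%. Among these regulators 17 stayed within 1.5-fold, and DDIT3 was listed at 0. The median was -0.32, or -0.22 when scaled by the fat cell markers, which left 2 genes called lower. KLF5, which acts between CEBPB and PPARG, had 6.59, 30.6 and 34.6 UQRPKM from 7, 31 and 36 reads, a log2 ratio of 2.22 (1.01 to 3.64) in CM versus IM. CEBPE had 2.98 (2.02 to 4.09). TCF7L2, a Wnt pathway factor, had 154, 85.4 and 113 UQRPKM and the lowest ratio, -0.85 (-1.01 to -0.70), and FOXC2 had -0.81 (-1.57 to -0.08) with an adjusted p of 0.0701 in the exact binomial test. STAT5A and FOXO1 were the others called lower, at -0.68 and -0.65. With at least 10 UQRPKM in both libraries, neither KLF5 nor CEBPE was called.

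After replacement, 1 of these 23 regulators was called higher and 4 lower, against 9.53% and 9.97% of all genes tested. Their median was 0.01. KLF9, a glucocorticoid-induced factor that acts late in fat cell formation, had 418, 393 and 633 UQRPKM and a log2 ratio of 0.69 (0.51 to 0.87). EBF2 followed with 0.49 (0.28 to 0.69), within 1.5-fold. The genes called lower were CEBPE, KLF4, EGR2 and STAT5A. KLF4, at -0.59, lost its call under each of the other 3 scalings, and STAT5A, at -0.63, under that by fat cell markers, which left 2 lower and 4 higher. EGR2, an early inducer of CEBPB together with KLF4, had 47.0, 37.6 and 12.8 UQRPKM and a ratio of -1.55 (-2.23 to -0.92), and KLF4 had 416, 306 and 203. CEBPB, EGR2 and KLF4 shared the order IM, CM, CMT from high to low, although the intervals of CEBPB for replacement and of EGR2 for castration (-0.76 to 0.11) included 0. The order was not particular to them. KLF2, KLF3, STAT5A, ZNF423 and ZNF467 of the same list and the factor MLXIPL also had it.

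Genes induced by glucocorticoids were followed because CEBPD and KLF15 belong to that response. Of 8 measured genes, 0 were higher and 1, ANGPTL4, was lower in CM than in IM, with a median of -0.46. ZBTB16 had -0.58 (-0.76 to -0.41), and at the upper end FKBP5 had -0.08 (-0.18 to 0.01). Between CMT and CM, KLF9 was called higher and DUSP1 lower (-0.68, -0.78 to -0.58), with SGK1 at -0.16 and ZBTB16 at 0.27. The median was 0.13, and FKBP5, a chaperone gene induced by glucocorticoids and androgens, had 301, 283 and 269 UQRPKM. TAT, a liver enzyme gene, had 0, 28 and 0 reads. Scaled by the fat cell markers, neither ANGPTL4 nor DUSP1 was called lower in these comparisons.

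Of 16 measured PPARG targets of the fat cell, 1 was higher and 2 were lower in CM versus IM, with a median of 0.01. The shares over all genes tested were 8.38% and 10.4%. The 2 lower calls were lost when scaled by the fat cell markers. SLC2A4, the insulin-responsive glucose transporter, had 161, 268 and 120 UQRPKM and a log2 ratio of 0.74 (0.58 to 0.89). CD36, a fatty acid transporter, followed with 0.31. PCK1, the key enzyme of glycerol synthesis in fat, had -0.68, and ANGPTL4, a lipoprotein lipase inhibitor, -0.66 (-0.70 to -0.62).

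After replacement, 1 of the 16 PPARG targets was higher and 3 were lower, against 9.53% and 9.97% of all genes tested. Their median was -0.43. SLC2A4 had -1.16 and AQP7, the glycerol channel, -0.62 (-0.70 to -0.55), and GPD1 was the third gene called lower at -0.60. PCK1 had 0.66 and ANGPTL4 0.25 at the upper end. Scaled by the fat cell markers, of which several are PPARG targets themselves, the median was -0.19 and SLC2A4 was the 1 gene called lower, with AQP7 at -0.38. PPARG itself differed by -0.03 between these libraries.

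Genes of fatty acid synthesis stand under SREBF1 and MLXIPL. In CM versus IM, 0 of 12 were higher and 1 was lower, ACLY, with a median of -0.13. ACLY, which makes the acetyl-CoA for lipid synthesis, had 6272, 3879 and 2007 UQRPKM and log2 ratios of -0.69 (-0.73 to -0.66) for castration and -0.95 for replacement. ACACB had -0.46 in CM versus IM. SCD, the stearoyl-CoA desaturase, had 7188, 9909 and 3308 UQRPKM and stood at the upper end with 0.46, followed by the malic enzyme gene ME1 with 0.31.

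With replacement, 5 of the 12 lipogenic genes were called lower and 0 higher, against 9.97% and 9.53% of all genes tested. Their median was -0.25. The 5 genes were SCD, ACLY, THRSP, FADS2 and ACACA, and SCD had the lowest ratio, -1.58 (-1.60 to -1.56). The gene TXNIP, a glucose-induced target of MLXIPL, had 0.13, and FADS1 had -0.14 with an interval from -0.50 to 0.22. FASN, the fatty acid synthase, had 10283, 9236 and 8276 UQRPKM, within 1.5-fold in each comparison. Scaled by the fat cell markers the median was -0.01, and 3 genes were called lower. MLXIPL itself, at -0.37, was not called.

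The genes that process SREBP proteins and pair with MLXIPL stayed within 1.5-fold in every comparison, 7 of 7 measured. INSIG1, which retains SREBPs in the endoplasmic reticulum, had 229, 253 and 193 UQRPKM, with 0.15 (0.02 to 0.28) for castration and -0.40 (-0.53 to -0.26) for replacement. MLX, the partner with which MLXIPL binds DNA, had 540, 572 and 526. MBTPS1, a protease that cleaves SREBPs, had -0.19 and 0.09, and RNF139 had 0.40 (-0.34 to 1.16) in CMT versus CM from 28 and 38 reads. Scaling by the fat cell markers brought 1 gene past 1.5-fold, higher, in CMT versus CM.

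Sterol synthesis genes are targets of SREBF2. Of 13 measured in CM versus IM, 1 was higher and 1 lower, with a median of -0.19. IDI1 had 22.8, 9.55 and 21.7 UQRPKM from 45, 18 and 42 reads, with -1.25 (-2.13 to -0.44) for castration and 1.18 (0.35 to 2.07) for replacement. STARD4, the other gene called in both comparisons, rested on 3, 14 and 2 reads. SC5D had -0.55 and MSMO1 0.38 in CM versus IM, with HMGCS1 at 0.17. For replacement the median of 14 genes was 0.23, with MVK at 0.49 (0.18 to 0.81) and MSMO1 at -0.39. Scaled by the fat cell markers, 3 of these genes were called higher, among them MVK at 0.73. With at least 10 UQRPKM in both libraries, 0 of these genes were called in either comparison.

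The measured oxidation genes under PPARA had lower ratios for castration than PPARA itself. Of 11 measured in CM versus IM, 0 were higher and 1, FGF21 at 8 and 3 reads, was lower but did not pass the exact binomial test, with a median of -0.14 against 1.10 for PPARA. CPT1A, which admits fatty acids to mitochondria, had 603, 443 and 466 UQRPKM and a log2 ratio of -0.44 (-0.53 to -0.36). PDK4, which spares glucose, had -0.46 for castration and 0.55 (0.51 to 0.59) for replacement. ACADM had 0.31 and ACADL 0.29 at the upper end. Between CMT and CM, UCP3 was the 1 gene called lower, with 1941, 2332 and 1240 UQRPKM and a ratio of -0.91 (-0.97 to -0.86). CPT2 had -0.32 and EHHADH 0.26, and the median was 0.03. Scaled by the fat cell markers, the median was 0.27 and 2 genes were called higher.

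The lists were also compared between CMT and IM, where the balance of calls over all genes turned with the scaling. Over all genes tested, 8.81% were called higher and 11.9% lower. Of the other regulators 2 were higher (KLF5 and KLF9) and 6 lower, of the partners 1 higher (SIRT1, 0.66) and 1 lower (PPARD, -0.65), and of the glucocorticoid-induced genes 1 higher and 2 lower. Among targets, 0 were higher and 2, 5, 2 and 2 were lower for PPARG, for SREBF1 with MLXIPL, for SREBF2 and for PPARA. Scaled by the fat cell markers, these lower counts were 0, 3, 0 and 1, and those of the other regulators, partners and glucocorticoid-induced genes 3, 0 and 1. ACLY had the lowest lipogenic ratio, -1.64 (-1.69 to -1.60), followed by SCD with -1.12 and THRSP with -0.98. The lipogenic median was -0.44, or -0.10 when scaled by the fat cell markers, and that of the PPARG targets was -0.38, or -0.04.

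**Figure D5:**
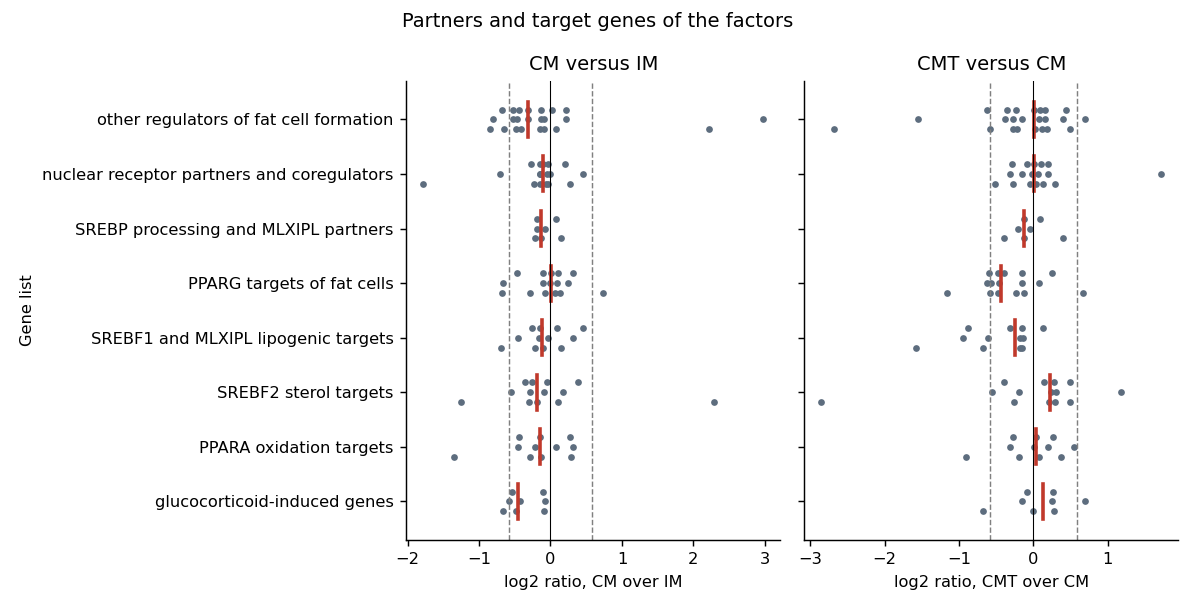
Log2 ratios of the measured genes of each list (points), CM over IM on one side and CMT over CM on the other, with the list median (red bar) and dashed lines at 1.5-fold. The PPARG targets have a median of 0.01 for castration and -0.43 for replacement, and 5 lipogenic genes lie below the lower line in CMT versus CM.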

How the data were processed

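RNA-Seq values of VAT were analysed from 3 libraries, 1 for each of IM, CM and CMT, grouped by their labels. The authors filtered Ion Proton single-end reads, mapped them to Sscrofa 10.2 with MapSplice and deposited RPKM values with upper-quartile scaling (UQRPKM). The counting tool, annotation and strand setting are not given in the sources used here.

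Reads were recovered as the smallest whole numbers that fit the values of a gene in all libraries (relative tolerance 1e-08), with scaling numbers of the libraries in the proportion 149, 142 and 146. This worked for 100% of 20838 genes above 0. The reads are the smallest that fit and may be too low by a common factor. Intervals are then too wide.

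Ratios of UQRPKM were taken on the log2 scale, and no pseudocount was added. Intervals are exact Clopper-Pearson 95% intervals, and exact conditional intervals for pairs of factors. Reads are not independent molecules, so all intervals cover counting error only. The exact binomial test was adjusted by Benjamini-Hochberg over all mRNA genes with reads. Alternatives were 3 other scalings, a pseudocount of 1, a fold of 2, no level limit or 10 UQRPKM, and the exact test.

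From each list of partners or targets, the 2 highest and 2 lowest log2 ratios for castration and for replacement are named, among genes with at least 20 reads in all. Some genes that this rule names are not reported here. Other genes named were chosen after their values were seen. The nearest genes to the factor of widest range are named too. The members and lists were chosen with earlier results of these data known. Gene names are used as deposited, and positions and sequences are not given because the gene table at hand describes another build. Python 3.11.15, SciPy 1.17.1 and pandas 2.3.3 were used.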

Additional observations from a re-analysis of the deposited data

How the results depend on the processing

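No alternative could have turned the direction of a called factor, since the largest scaling shift, 0.34 in log2 units, is smaller than 1.5-fold. Under the fat cell scaling, the uncalled ratios of PPARG and CEBPB changed sign in CMT versus CM, and that of CEBPA in CMT versus IM. PPARA in CM versus IM and CEBPD in CMT versus CM kept their calls with the pseudocount, the level limits and the exact binomial test. Both also kept them under the 3 scalings, which raise every ratio in these comparisons and so could not remove a higher call. A fold of 2 left 0 factors lower for CM versus IM and 0 higher for CMT versus CM, with 0 in either direction for CMT versus IM, since only PPARA in CM versus IM exceeds it. Scaling by the median ratio left 0 factors lower in CM versus IM, as did scaling by fat cell markers, which also left 0 lower in CMT versus IM. Scaling by total UQRPKM moved CEBPA in CMT versus IM to -0.16. The median ratio moved CEBPA to 0.29 for castration. Against intact pigs, it moved CMT values of PPARG to 0.33, CEBPA to -0.10, CEBPD to 0.78 and MLXIPL to -0.43. The fat cell scaling gave 0.36 for PPARG, 0.32 for CEBPA and -0.06 for MLXIPL in CM versus IM. It gave 0.21 for PPARG, -0.18 for CEBPA, 0.86 for CEBPD and -0.13 for MLXIPL in CMT versus CM. For CMT against IM the same factors had 0.57, 0.14, 1.02 and -0.19. These shifts follow from the scaling, which adds a constant to every gene. For the other named genes and lists, 520 of 632 values stayed within counting error or 1.5 times the count and 112 moved. A reversal was counted only for called genes, whose direction these shifts were too small to turn, so the 0 reversals found carry no information. No paired analysis was possible because each group has 1 library. Depth limits CEBPB and PPARA most, with 78 to 168 reads per library.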
